A study of Arabidopsis thaliana with 87 samples.

Results

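Fully green leaves were compared with fully red leaves of plants that carried the RUBY pigment transgene under the 35S promoter, for each length and strand of small RNA on the transgene. The study concerns how silencing of this transgene starts, and the contrast asks which small RNA classes go with leaf colour. The members were the libraries whose titles call the leaves fully green (9 libraries) or fully red (13 libraries), which is 22 of the 87 libraries of the series. All 22 were small RNA libraries from 4-week-old leaves of Arabidopsis thaliana Col-0, the wild-type background, transformed with 35S::RUBY, so that green and red leaves carried the same construct. They came from 8 transgenic events, MK016, MK025 and MK040 to MK045, of which 6 had fully green leaves. In 9 cases the same event and label number had both a green and a red library, and 4 red libraries had no such partner. Libraries of 1 event share their insertion, and the study calls them biological replicates without saying whether they came from separate plants. The p-values below therefore measure the spread between these libraries.

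RUBY encodes the enzymes that turn tyrosine into betalain, a red pigment, and the 35S promoter of cauliflower mosaic virus is active in most plant tissues. When a transgene is silenced, its RNA can be copied into double-stranded RNA by an RNA-dependent RNA polymerase such as RDR6, and DICER-LIKE (DCL) enzymes cut the duplex into small RNAs from both strands. In Arabidopsis, DCL4 makes 21 nt products and DCL2 makes 22 nt products, which guide cleavage of messenger RNA, while DCL3 makes 24 nt products, which guide DNA methylation. The files count every read on the transgene in 11 lengths (18 to 28 nt) and on 2 strands, which gives 22 classes. A read is counted whatever cut it. Which strand matches the RUBY messenger RNA is not given in the sources used here, so the strands are called plus and minus as in the files. The files hold transgene reads without a leaf marker, and leaf colour could not be checked against other genes.

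Levels are reads per 1000000 mapped reads (RPM). Green libraries had 7.14 to 27.8 M mapped reads, where 1 M stands for 1000000, and red libraries 0.905 to 30.7 M, with medians of 12.8 and 16.8 M. Transgene reads made up 2.04 to 9.71% of mapped reads in green and 0.0446 to 0.299% in red libraries. The fully red library of MK044 number 3 stood apart before any comparison. It had 0.905 M mapped reads and 404 transgene reads, so that 3 reads corresponded to 3.32 RPM, and 7 of its 11 minus strand classes were at 0. Its values are included, and some results that rest on it are also given without it. Such a floor takes in counting error alone, as does the interval of a share in a single library, since the reads carry no molecular identifiers and copies made by PCR cannot be told from separate molecules. In bulk leaves, more small RNA per cell and more cells that make it cannot be told apart.

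Transgene small RNA was higher in fully green than in fully red leaves at every length and on both strands. All 22 classes passed the threshold of adjusted p under 0.05 with green higher, which is 100% of the classes tested. In 18 of them, 81.8%, all 9 green libraries lay above all 13 red ones, and the 4 exceptions were 25 to 28 nt on the plus strand. With a pseudocount of 1 RPM, the difference ran from 2.29-fold at 27 nt on the plus strand to 92.4-fold at 21 nt on the minus strand. The 22 classes come from the same libraries and 1 transgene and are not independent of each other. All 22 calls also held with 1 mean per event, and in edgeR's quasi-likelihood test on the read counts.

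Every length of the minus strand rose. Among minus strand classes, 21 nt small RNA was the most abundant in both colours, and with a pseudocount of 1 RPM it also had the largest fold of all 22 classes. With 0.1 RPM the 24 and 23 nt folds of this strand were larger, at 104 and 98.2 against 93.1, and by ratio of mean RPM 23 and 24 nt also stood above 21 nt. The 21 nt class reached 9877 RPM in the lowest, 24814 RPM in the median and 41194 RPM in the highest green library, with a mean of 25859 ± 11130 RPM (SD, n = 9). In red libraries the lowest, median and highest values were 16.6, 199 and 1284 RPM, with a mean of 405 ± 373 RPM (SD, n = 13). The groups did not overlap: the lowest green library, MK044 number 3, stood above the highest red one, MK016 number 5. The level was 92.4-fold higher in green leaves (95% interval 40.7 to 214; exact permutation test, adjusted p = 2.46e-06). Folds are ratios of geometric means of RPM + 1, and this adjusted p belongs to the smallest p that the 497420 groupings of 22 libraries can give, 2.01e-06. Without the shallow red library of MK044 number 3, the fold was 74.0.

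The 22 nt class of the minus strand, the length made by DCL2, followed the same order. Green libraries ran from 1041 through a median of 2972 to 4840 RPM, and red libraries from 5.53 through 22.3 to 158 RPM. The colours did not overlap, and green leaves were higher by 79.2-fold on average (95% interval 38.9 to 161; exact permutation, adjusted p = 2.46e-06) and by 69.0-fold without MK044 number 3 red. The 24 nt class, the length made by DCL3, was less abundant on this strand. It ranged from 251 through 730 to 1195 RPM in green and from 0 through 4.47 to 34.4 RPM in red libraries. The library at 0 was the shallow MK044 number 3, in which a count of 0 allows up to 3.32 RPM. The fold was 77.3 (95% interval 37.4 to 161; exact permutation, adjusted p = 2.46e-06), and 65.0 without that library.

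Minus strand reads outside these lengths were scarce in red leaves and changed in the same direction. The 18, 19 and 20 nt classes averaged 409, 904 and 991 RPM in green leaves against 11.4, 26.6 and 30.3 RPM in red leaves, which gave folds of 41.3, 50.1 and 51.2. The 23 nt class averaged 220 against 3.34 RPM, a fold of 58.9. Without MK044 number 3 red, the 18, 19, 20 and 23 nt folds were 38.3, 40.0, 44.5 and 53.2. The 25, 26, 27 and 28 nt classes averaged between 38.6 and 74.6 RPM in green leaves and between 0.854 and 1.22 RPM in red leaves. Each of these classes had a median of 7 to 10 reads per red library. With a pseudocount of 1 RPM the smallest minus strand fold was that of 26 nt, 20.4 (95% interval 13.4 to 31.1; exact permutation, adjusted p = 2.46e-06), where green libraries ran from 15.8 through 37.0 to 67.4 RPM and red libraries from 0 through 0.544 to 2.73 RPM. Minus strand folds depended on the pseudocount where red levels were low. Between pseudocounts of 0.1 and 10 RPM the fold fell from 53.0 to 4.18 at 26 nt, from 98.2 to 16.1 at 23 nt, from 104 to 33.7 at 24 nt and from 49.0 to 18.4 at 18 nt, against 93.1 to 86.6 at 21 nt. The ratio of mean RPM, which has no pseudocount, was 42.5 at 26 nt, 46.1 at 27 nt and 54.0 at 28 nt. From 21 to 25 nt that ratio was 63.9, 61.3, 66.0, 64.6 and 61.1, and at 18, 19 and 20 nt it was lower, at 36.0, 33.9 and 32.8.

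**Figure D1:**
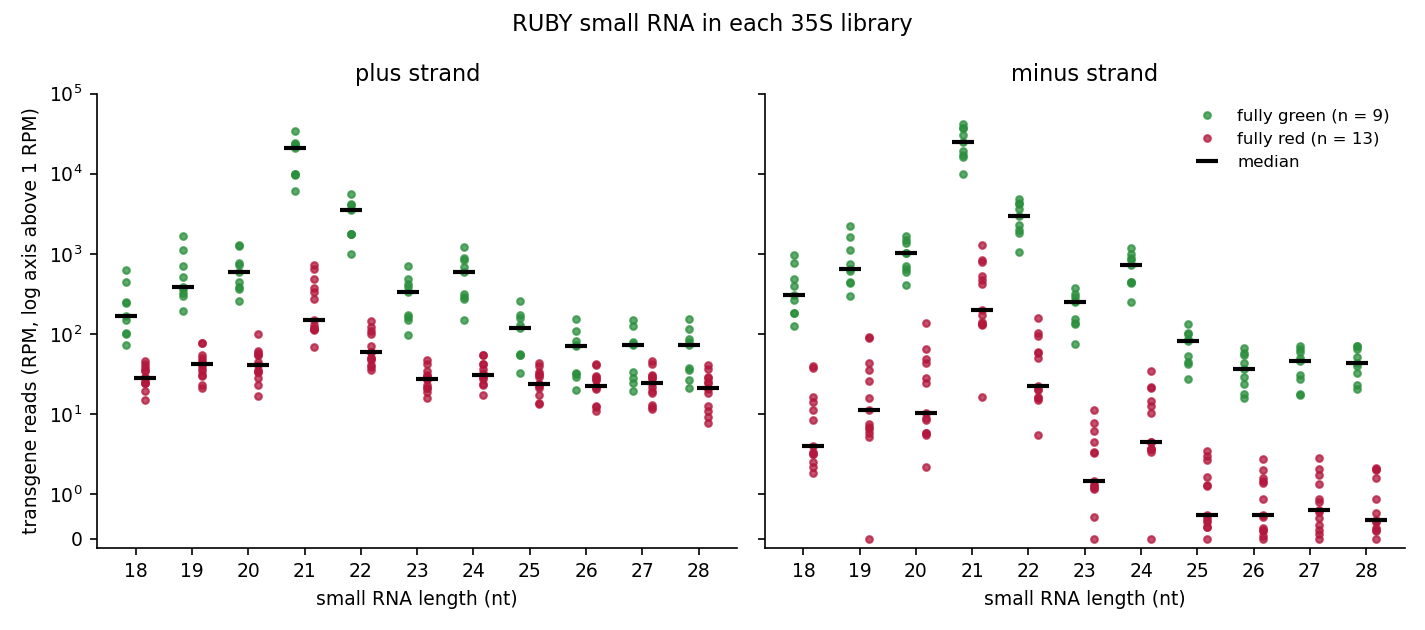
RPM of every library (log axis) for each length on the plus and the minus strand, with fully green and fully red 35S leaves as separate points. On the minus strand the 2 colours are apart at every length, and on the plus strand they approach and overlap from 25 to 28 nt.

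The plus strand rose as well, but by an amount that depended on the length. At 21 nt, green libraries ran from 5999 through 20958 to 34060 RPM, with a mean of 17840 ± 9323 RPM (SD, n = 9). Red libraries ran from 68.5 through 149 to 728 RPM, with a mean of 281 ± 220 RPM (SD, n = 13). The groups did not overlap, and the fold of 72.5 was the largest of the plus strand (95% interval 38.3 to 137; exact permutation, adjusted p = 2.46e-06). It was 66.0 without MK044 number 3 red.

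At 22 nt on the plus strand the range was 990 through 3502 to 5579 RPM in green and 35.4 through 60.4 to 144 RPM in red libraries, a fold of 40.7 (95% interval 25.7 to 64.3; exact permutation, adjusted p = 2.46e-06). At 24 nt it was 150 through 595 to 1203 RPM in green and 17.3 through 30.5 to 54.2 RPM in red libraries, a fold of 14.4 (95% interval 9.13 to 22.7; exact permutation, adjusted p = 2.46e-06). Neither class overlapped between the colours. The 24 and 22 nt folds were 77.3 and 79.2 on the minus strand, against 14.4 and 40.7 on the plus strand. The 18, 19, 20 and 23 nt plus strand classes rose 6.40-fold, 11.9-fold, 14.1-fold and 9.58-fold, again with no overlap between the colours.

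The longest plus strand classes were those where the colours came closest. At 27 nt, the smallest fold of all 22 classes, green libraries ran from 19.6 through 72.2 to 151 RPM and red libraries from 11.5 through 24.7 to 46.2 RPM. The groups overlapped, with 5 of 9 green libraries above all red ones. The level was 2.29-fold higher in green leaves (95% interval 1.37 to 3.82; exact permutation, adjusted p = 0.00302). The call at 27 nt ended without the libraries of event MK040 (log2 difference 0.66, exact permutation, adjusted p = 0.0571). The 25, 26 and 28 nt plus strand classes rose 3.70-fold, 2.36-fold and 2.83-fold (exact permutation, adjusted p = 9.31e-06, 0.00134 and 0.000564), with 8, 5 and 5 of 9 green libraries above all red ones.

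**Figure D2:**
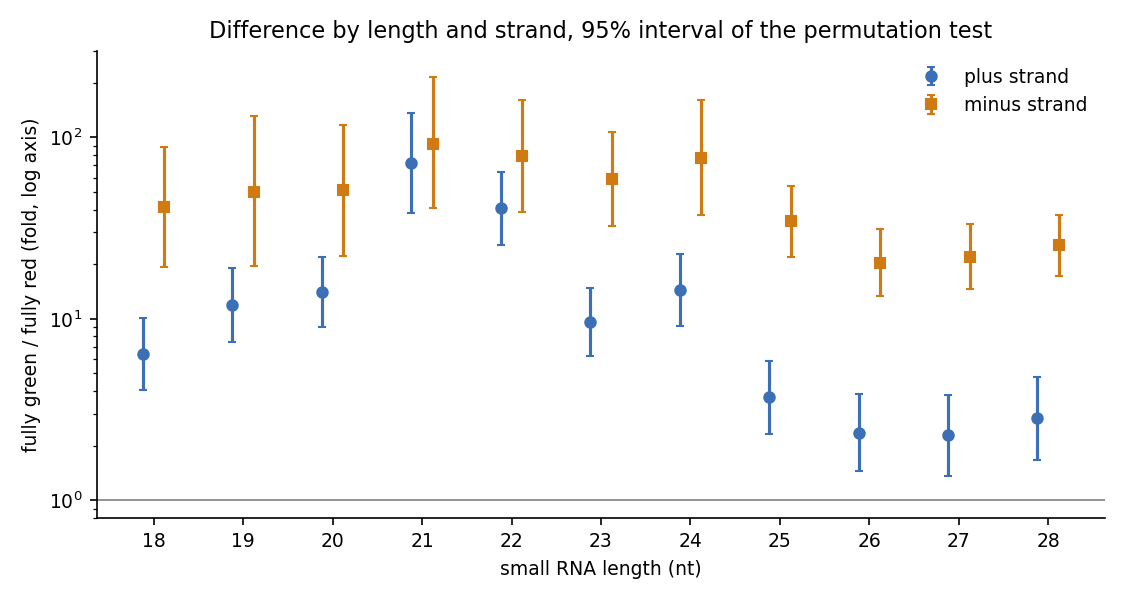
Fold of fully green over fully red 35S leaves for each length (log axis), with the plus and the minus strand as separate series and bars for the 95% interval. The minus strand lies between 20.4 and 92.4 and the plus strand between 2.29 and 72.5, with the peak of both at 21 nt at the pseudocount of 1 RPM used here. With 0.1 RPM the minus strand peak lies at 24 nt (104 against 93.1 at 21 nt).

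The spread among red libraries was wider on the minus than on the plus strand. The coefficient of variation over the 13 red libraries was 91.7 to 124% for minus strand classes and 30.0 to 78.5% for plus strand classes. At 21 nt, where counts were highest, it was 92.1% on the minus and 78.5% on the plus strand. Counting error adds to the minus strand spread from 25 to 28 nt, where red libraries had medians of 7 to 10 reads. The shallow MK044 number 3 also enters these values. On the plus strand, red class means outside 21 and 22 nt lay within 22.0 to 45.1 RPM, while green class means there ran from 67.2 to 675 RPM. The mean of 21 nt was 223 times the mean of the 25 to 28 nt classes in green leaves and 11.5 times in red leaves on the plus strand. For the minus strand the same ratio was 512 and 414. The mean profile of red leaves was thus flatter on the plus strand than on the minus strand.

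Other plants with 35S::RUBY were labelled always red, and 8 of their libraries had the dcl1234 background, in which the 4 DCL genes are mutated. Their levels are set beside the red leaves with no test. In dcl1234 the plus strand was flat, with class means of 30.7 to 37.8 RPM, of which 37.8 ± 4.70 RPM (SD, n = 8) was the 21 nt class and 30.7 ± 3.11 RPM the 28 nt class. The 21 nt minus strand class stood at 6.19 ± 0.540 RPM there. In always red Col-0 plants the 21 nt class reached 99.0 ± 29.8 RPM on the plus and 115 ± 34.7 RPM on the minus strand (SD, n = 11), and the 28 nt plus class 17.0 ± 8.25 RPM. Fully red leaves, at 281 and 405 RPM of 21 nt and 22.0 ± 10.5 RPM of 28 nt plus reads, were thus above the dcl1234 plants at 21 nt and below them in mean 28 nt plus strand reads. Reads that no DCL enzyme cut would be counted in every group, and their part in the differences was not tested. The 2 libraries of always green plants, both of event MK017, averaged 32168 RPM of 21 nt plus and 37286 RPM of 21 nt minus reads. The fully green maxima were 34060 and 41194 RPM.

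The balance between the strands was then compared length by length, as the percentage of the reads of 1 length that lay on the minus strand. This share does not depend on the mapped total. At 21 nt the share did not differ past the threshold. Green libraries held 52.5% at the lowest, 61.8% at the median and 66.2% at the highest, with a mean of 60.2 ± 4.75% (SD, n = 9). Red libraries held 19.5, 57.0 and 63.8%, with a mean of 54.6 ± 11.1% (SD, n = 13). The difference of 5.61 percentage points was inside the spread (95% interval -1.28 to 13.4; exact permutation, adjusted p = 0.142), and the green library was higher in 5 of 9 pairs. The lowest red value came from 77 reads in MK044 number 3 (95% Wilson interval 12.2 to 29.7%). Without that library the difference was 2.69 points (adjusted p = 0.148, exact permutation).

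At the other 10 lengths the minus strand share was higher in green leaves, which is 90.9% of the lengths tested. In 7 of the 11 lengths, 63.6%, each of the 9 green libraries exceeded each of the 13 red ones. The 18 nt class had the largest difference. There the minus strand held 63.6 ± 1.45% in green leaves, against 22.2 ± 15.6% in red leaves, a difference of 41.4 points (95% interval 30.6 to 52.7; exact permutation, adjusted p = 1.47e-05). At 19 and 20 nt the difference was 31.1 and 28.9 points (exact permutation, adjusted p = 0.000102 and 0.000211). Without MK044 number 3 red the differences at 18, 19 and 20 nt were 40.0, 28.7 and 26.5 points. The 22 nt class had the smallest passing difference, 50.5 ± 3.59% against 34.9 ± 11.6%, or 15.6 points (95% interval 7.22 to 24.04; exact permutation, adjusted p = 0.00113). At that length 3 of 9 green libraries exceeded all red ones.

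For 24 nt reads it held 56.3 ± 6.17% in green leaves, against 21.9 ± 14.9% in red leaves, a difference of 34.4 points (exact permutation, adjusted p = 3.48e-05). At 23 nt it was 42.4 ± 5.54% against 10.4 ± 9.27%. From 25 to 28 nt, red leaves had almost all reads on the plus strand, with mean minus strand shares of 4.36 to 5.15%, while green leaves had 38.8 to 42.7%. The 4 longest classes and 23 nt each had an adjusted p of 4.42e-06 (exact permutation), the value that belongs to the smallest p the groupings allow. The side of the balance also varied with length within green leaves. All 9 green libraries held more than 50% of their 18, 19, 20 and 21 nt reads on the minus strand, 6 did so at 22 and 24 nt, and 1 or none at 23 nt and from 25 to 28 nt.

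**Figure D3:**
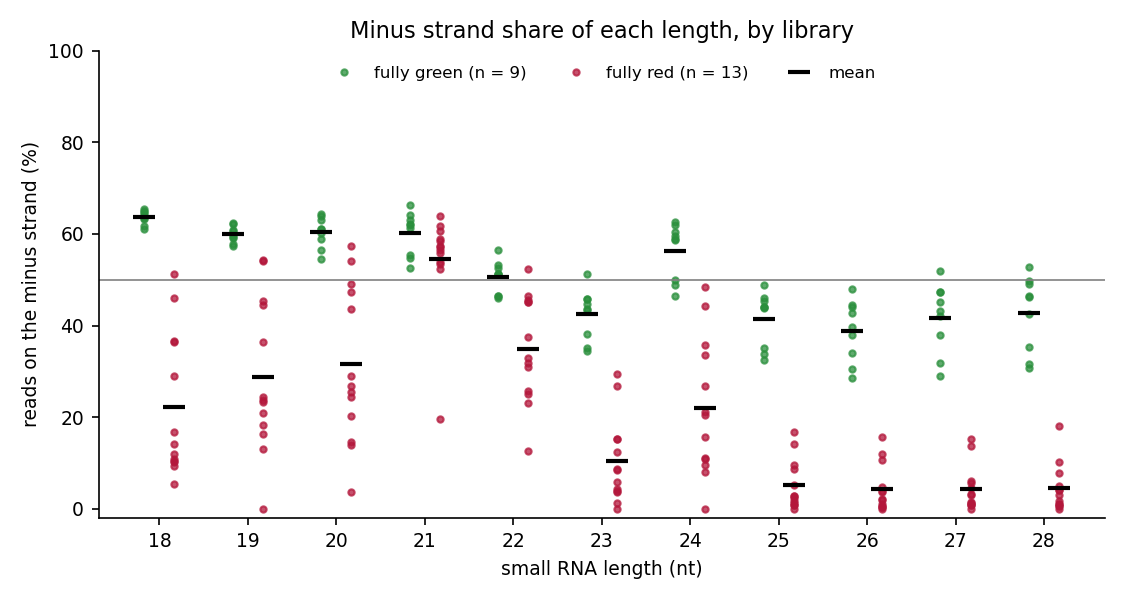
Percentage of the reads of each length that lay on the minus strand, for every fully green and fully red 35S library. The colours overlap at 21 nt, with means of 60.2 and 54.6%. They are farthest apart at 18 nt, with a red mean of 22.2%, and from 25 to 28 nt, with red means of 4.36 to 5.15%. The differences at 24 and 26 nt are both 34.4 points.

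The length make-up was compared within each strand, as the percentage of all 18 to 28 nt reads of that strand. On the plus strand all 11 lengths, 100% of those tested, differed between the colours. Small RNAs of 21 nt held 71.7% at the lowest, 75.8% at the median and 77.6% at the highest of the green libraries, and 16.3, 39.1 and 62.1% in the red ones. The groups did not overlap, and the means of 75.5 ± 1.70% and 39.8 ± 14.8% differed by 35.7 points (95% interval 25.3 to 46.2; exact permutation, adjusted p = 5.53e-05). The 22 nt share was 1.78 points higher in green leaves, at 13.0% against 11.2% (exact permutation, adjusted p = 0.000201). When reads of 21 to 24 nt alone were the denominator, the 22 nt class turned to lower in green leaves, a difference of -4.35 points (exact permutation, adjusted p = 0.000692). The other 9 lengths each held a smaller share of the plus strand in green leaves. Examples are 24 nt at 2.36% against 6.10% (exact permutation, adjusted p = 0.000418) and 28 nt at 0.282% against 4.07% (exact permutation, adjusted p = 0.00027). These shares sum to 100% in each library, so that a rise at 1 length lowers the others.

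On the minus strand 2 of 11 lengths, 18.2%, passed. Reads of 21 nt made up 80.1 ± 2.64% of this strand in green leaves, against 75.4 ± 4.99% in red leaves, 4.69 points higher (95% interval 1.03 to 8.48; exact permutation, adjusted p = 0.0219). For 20 nt the share was 3.11% against 5.01%, 1.90 points lower in green leaves (exact permutation, adjusted p = 0.0096). Both calls ended without event MK016, with differences of 4.78 points at 21 nt and -1.77 points at 20 nt (exact permutation, adjusted p = 0.085 and 0.0577). The 21 nt call also ended without MK042 (4.41 points, exact permutation, adjusted p = 0.0564). Without the green library of MK040 number 2, the 18 and 19 nt shares passed as well, both lower in green leaves, with differences of -1.28 and -1.66 points (exact permutation, adjusted p = 0.0427 and 0.0449). Without MK041, which has red libraries only, 23 nt passed too (0.149 points higher, exact permutation, adjusted p = 0.0384). With all libraries the other 9 lengths did not pass. Among them, 22 nt held 9.28 ± 0.488% against 10.1 ± 3.28%, a difference of -0.847 points (95% interval -2.94 to 0.859; exact permutation, adjusted p = 0.779), which became 0.0455 points without MK044 number 3 red. The 24 nt share was 2.12 ± 0.150% against 1.86 ± 0.604%, a difference of 0.261 points (95% interval -0.0983 to 0.670; exact permutation, adjusted p = 0.273). The share of 21 nt reads thus differed by 35.7 points on the plus strand and by 4.69 points on the minus strand. Without MK044 number 3 red these differences were 33.8 and 3.61 points (exact permutation, adjusted p = 7.48e-05 and 0.0262).

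**Figure D4:**
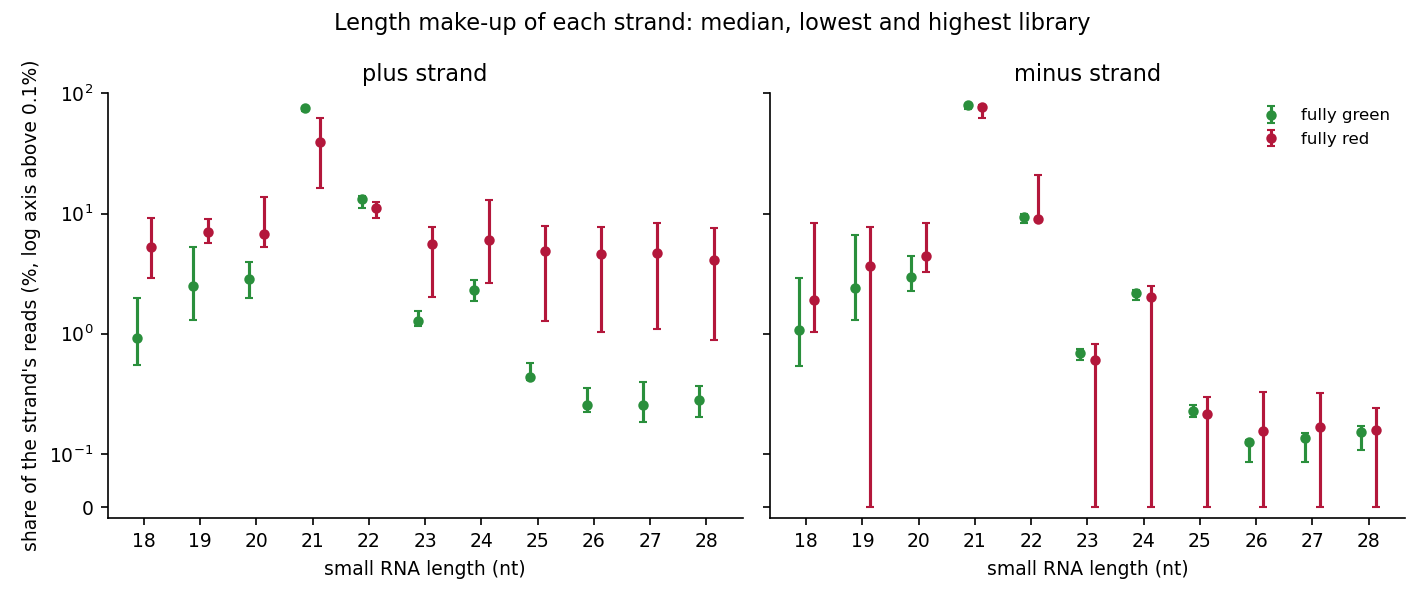
Percentage of the reads of each strand held by each length in fully green and fully red 35S leaves, where points are medians and bars run from the lowest to the highest library. The colours separate at 21 nt on the plus strand, with medians of 75.8 and 39.1%, and lie close to each other on the minus strand.

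Pairs differed in how far green and red leaves were apart, also within an event. In the 9 pairs of 1 event and label number, the green library was higher in 9 of 9 pairs for 19 of the 22 classes. At 25, 26 and 27 nt on the plus strand it was higher in 8 of 9, and the exception was MK044 number 3, with ratios of 0.988, 0.767 and 0.667. These ratios rest on 30, 24 and 27 reads in its shallow red library. The smallest 21 nt fold of a pair was that of MK016 number 5, 13.1 on the minus and 13.5 on the plus strand. Its red library was the highest of all red ones at 21 nt, with 1284 RPM on the minus and 728 RPM on the plus strand. Another pair of the same event, MK016 number 4, had folds of 188 and 140, the latter the largest 21 nt plus strand fold. The largest on the minus strand, 562 in MK044 number 3, rests on 15 red reads.

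For the longest plus strand reads the order of the pairs was another. The MK040 pairs had the highest folds at 25 nt, 14.1 and 12.1, and at 28 nt, 12.8 and 11.5, whereas all other pairs lay at or below 5.34 at 25 nt and 3.14 at 28 nt. Their red libraries were low at 28 nt, at 10.9 and 9.17 RPM, where the shallow MK044 number 3 alone was lower with 7.74 RPM, and their green libraries were the highest of the green group, at 152 and 116 RPM. Green leaves of MK040 number 2 also held more of the shortest reads. There, 18 to 20 nt reads made up 14.0% of the minus strand, against 4.38 to 8.36% in the other green libraries, MK040 number 1 included. In red leaves the same event and number had 16.6%. The shallow red library of MK044 number 3 had 16.7%, from 4 of 24 reads (95% Wilson interval 6.68 to 35.9%), and the other red libraries had 7.37 to 14.9%. Without MK044 number 3, MK040 number 2 was thus the highest in both colours.

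The nearest comparison in the series is the same colour contrast under ZmUBQ, named after a maize ubiquitin promoter. It has 7 pairs of event and label number in Col-0, from 3 events, so that some pairs share an insertion. The comparison asks whether the green to red difference has the same length profile. No event carries both promoters, and the ZmUBQ files hold columns that the 35S files lack, so that promoter, event and any difference in how the files were made cannot be told apart. The 21 nt folds did not differ past the threshold. On the minus strand the mean fold within pairs was 69.9 under 35S and 76.5 under ZmUBQ (log2 difference -0.13, exact permutation, adjusted p = 0.933). On the plus strand the folds were 55.3 and 53.8 (log2 difference 0.04, exact permutation, adjusted p = 0.961). These p-values do not show that the folds are equal. Between pairs, the SD of the log2 green minus red difference was 1.01 to 2.09 for these classes. None of the 18 to 22 nt classes differed past the threshold.

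From 23 to 28 nt the 35S difference was the larger on both strands, in 12 of 22 classes or 54.5% of those tested. Minus strand reads of 24 nt were 61.3-fold higher in green leaves under 35S and 5.43-fold under ZmUBQ (log2 difference 3.50, exact permutation, adjusted p = 0.0024), and 8 of 9 35S pairs exceeded all ZmUBQ pairs. The 23 nt class of that strand had folds of 47.2 and 3.80 (log2 difference 3.64, exact permutation, adjusted p = 0.00192). On the plus strand the 24 nt folds were 13.8 and 3.23 (log2 difference 2.09, exact permutation, adjusted p = 0.0175). The levels behind the 24 nt minus strand folds were means of 691 (green) and 10.7 RPM (red) under 35S, and 131 and 20.6 RPM under ZmUBQ. At 26, 27 and 28 nt on the minus strand, red means were 0.267, 0.218 and 0.226 RPM under ZmUBQ. Under 35S they were 0.909, 0.930 and 0.854 RPM. These means lie below the pseudocount of 1 RPM, which lowers such folds, and more so under ZmUBQ, where the means were lower. Part of the excess under 35S at these lengths thus comes from the pseudocount. With a pseudocount of 0.1 RPM, 7 classes passed in place of 12. The remaining calls on the plus strand were at 23 and 28 nt (log2 differences 1.58 and 1.63) and at 25, 26 and 27 nt (1.34, 1.31 and 1.55). Leaving out 1 pair ended the plus strand calls at 25, 26 and 27 nt in 13, 11 and 4 of 16 cases. With 1 mean per event, 6 events of 35S were set against 3 of ZmUBQ. The 6 classes of 23 to 28 nt on the minus strand then passed (exact permutation, adjusted p = 0.0437 for each). Each had an unadjusted p of 0.0119 in that test, the smallest that so few events allow. Event means were tested at the pseudocount of 1 RPM only, so that this result does not remove the dependence on the pseudocount.

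**Figure D5:**
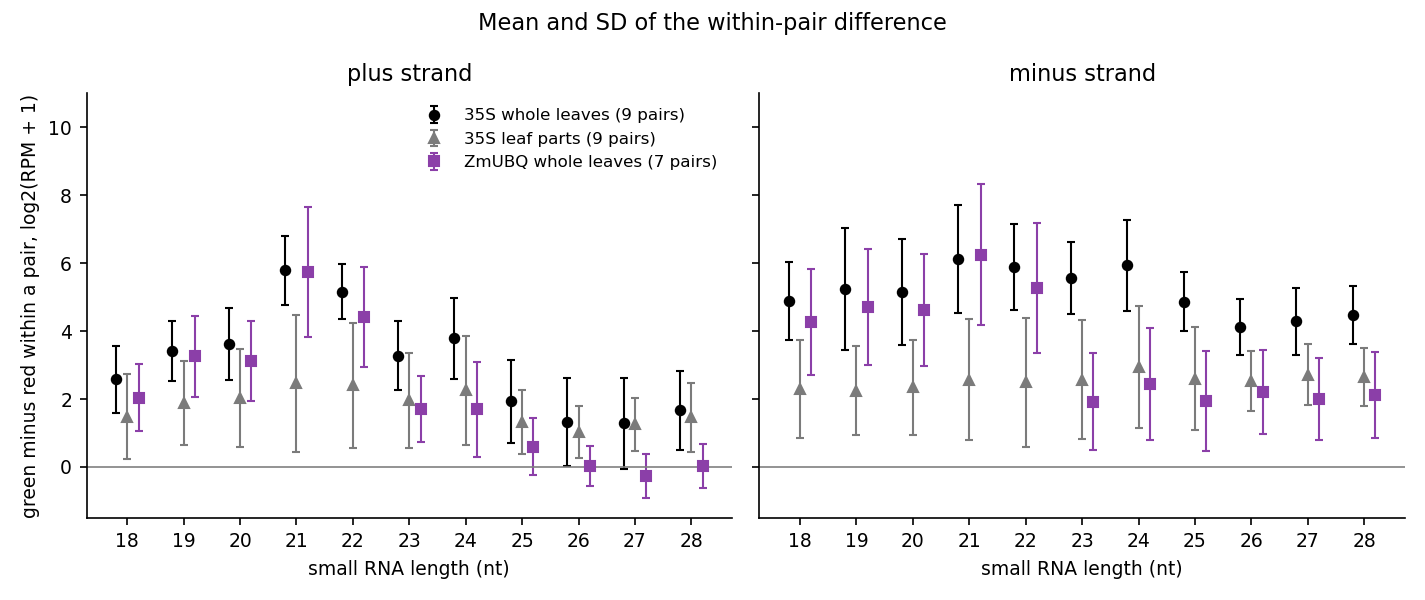
Mean within-pair log2 difference of green minus red for each length and strand in 35S whole leaves (9 pairs), ZmUBQ whole leaves (7 pairs) and 35S leaf parts (9 pairs), with bars for the SD. At 21 nt the 35S and ZmUBQ whole leaves lie together near 6, and the leaf parts lie below both. From 23 to 28 nt the 35S whole leaves are higher than the ZmUBQ whole leaves.

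Leaf parts labelled green or red, from the same 35S events, gave the second comparison, over the 9 event and label numbers with all 4 libraries. Parts are read here as sectors of leaves of mixed colour, and the comparison asks whether their colours differ as much as whole leaves do. It uses the same whole-leaf libraries as the promoter comparison. One pair of parts ran against its colours: red parts of MK016 number 5 held 79188 RPM of transgene small RNA, against 26078 RPM in its green parts and a median of 3470 RPM over red parts. Whole leaves differed more in 17 of 22 classes, 77.3% of those tested. At 21 nt on the minus strand the fold was 69.9 between whole leaves and 5.94 between parts, an 11.8-fold larger ratio (log2 difference 3.56, exact sign-flip permutation, adjusted p = 0.0132), and it was larger in whole leaves in 9 of 9 numbers. Without MK016 number 5 these folds were 86.1 and 8.41 (log2 difference 3.36, exact sign-flip permutation, adjusted p = 0.0264), and 14 classes passed. The 21 nt plus strand folds were 55.3 and 5.55, and the 24 nt minus strand folds were 61.3 and 7.65, with the same adjusted p of 0.0132 (exact sign-flip permutation). The classes that did not pass were all on the plus strand, at 18 nt and from 25 to 28 nt. At 27 nt the folds were 2.43 and 2.39 (log2 difference 0.03, exact sign-flip permutation, adjusted p = 0.949). With 1 mean per event, or with the 6 pairs of at least 8 M mapped reads, no class passed (exact sign-flip permutation), 5 classes had an unadjusted p under 0.05 in each case, and the smallest p that 6 values allow is 0.0312. Leaving out any single one of 6 pairs ended the calls at 20, 23 and 24 nt on the plus strand (exact sign-flip permutation, adjusted p up to 0.0573, 0.0645 and 0.0708). These were MK016 numbers 4 and 5, MK040 numbers 1 and 2, MK043 number 1 and MK045 number 3. At 18 nt on the plus strand the difference passed without MK016 number 3 or MK042 number 3 (adjusted p = 0.0477 and 0.0202 by exact sign-flip permutation).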

How the data were processed

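The authors extracted leaf RNA with TRIzol and made size-enriched small RNA libraries with a TruSeq kit, per the labels' protocols. The submitters' processing notes name the TAIR10 build, and the aligner, trimming and definition of mapped reads are not given in the sources used here. Each file gave the read count the authors assigned to each length and strand of RUBY, without normalization, and the deposited RPM, which is that count per 1000000 mapped reads (0 lines deviated by more than a relative 1e-06). In 4 files the authors listed no line for classes without a read, and these classes were taken as 0.

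Groups came from the sample titles. The members, classes and tests were chosen with earlier results of these data known. Values for 21, 22 and 24 nt and for the largest and smallest fold of each strand are given as lowest, median and highest, by a fixed rule. RPM were tested as log2(RPM + 1), with two-sided exact permutation of group means over 497420 groupings, or over 512 sign flips for 9 pairs, and Benjamini-Hochberg adjustment over 22 classes (11 lengths for the minus strand share). Intervals at 95% hold the shifts the same test did not reject at 0.05. The count test, edgeR 4.0.16 (R 4.3.3) with mapped reads as library size, was an alternative, because all classes rise together and scaling on them would remove the difference. Others were a pseudocount of 0.1 or of 10 RPM, ranks, levels below 1 RPM taken as 0, reads outside RUBY as the denominator, 1 mean per event, pairs, and each library, event or pair left out. Also tried were a minimum of 8 M mapped reads, shares as log2 ratios, shares from at least 100 reads, and shares of 21 to 24 nt reads. Of 114 library pairs within groups, 1 was not separated from sampling noise (chi-squared p = 0.228, fully red MK041 number 1 and MK043 number 2). They come from different events and were averaged only as an alternative, which changed no call. The permutation code was tested on simulated data. Computation used Python 3.11.15 with scipy 1.17.1.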

Additional observations from a re-analysis of the deposited data

Results flagged for a closer look

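Some values stood apart from the other 8 fully green libraries of their class by the size of the gap relative to the range (Dixon's critical value 0.493 for 9 libraries). Of 55 such checks, 7 did so, and chance gives about 1 in 20. Of these, 6 belonged to MK040 number 2. Its plus strand reads were 1.99% 18 nt, the highest, and 71.7% 21 nt, the lowest of the green libraries. Its minus strand reads were 2.90% 18 nt, 6.64% 19 nt and 4.42% 20 nt, the highest values, and 73.6% 21 nt, the lowest. The other was the 27 nt share of the minus strand in MK016 number 5, 0.0840%, the lowest.

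With a pseudocount of 1 RPM, the green minus red log2 difference was larger under 35S than under ZmUBQ in 12 classes (exact permutation over pairs). On the minus strand the excess was 3.64 at 23 nt, 3.50 at 24 nt, 2.92 at 25 nt, 1.92 at 26 nt, 2.29 at 27 nt and 2.36 at 28 nt. On the plus strand it was 1.58 at 23 nt, 2.09 at 24 nt, 1.34 at 25 nt, 1.31 at 26 nt, 1.55 at 27 nt and 1.63 at 28 nt.

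The same log2 difference was larger between whole leaves than between leaf parts in 17 classes by exact sign-flip permutation. On the plus strand the excess was 1.53 at 19 nt, 1.59 at 20 nt, 3.32 at 21 nt, 2.75 at 22 nt, 1.32 at 23 nt and 1.53 at 24 nt. On the minus strand it was 2.60 at 18 nt, 3.00 at 19 nt, 2.80 at 20 nt, 3.56 at 21 nt, 3.40 at 22 nt and 3.00 at 23 and 24 nt. From 25 to 28 nt on that strand it was 2.26, 1.60, 1.57 and 1.83.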

How the results depend on the processing

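The number of classes past the threshold stayed within 1.5 times of the reported one under all alternatives run for the level (21 to 22 of 22) and the minus strand share (10 of 11). With the replicate block over 9 pairs, 22 levels, 10 minus strand shares, 11 plus strand length shares and 5 minus strand length shares passed, the last at 18, 20, 21, 23 and 24 nt, of which 18, 23 and 24 nt were gained (exact sign-flip permutation, adjusted p = 0.00716, 0.0161 and 0.0161). Pairing by label number was checked on the 22 deviations of each library from its group mean. The deviations of pair members correlated above 0.1 in 4 of 9 pairs, and 1 of 9 green libraries correlated best with its own number. The event was not taken out, so that this check cannot tell pairing by number from pairing by event. The minus strand length make-up, with 2 of 11 lengths, had 5 as log2 ratios with 1 read added, 0 as shares of 21 to 24 nt reads, and 0 to 4 with 1 library or event left out. For 35S against ZmUBQ, 7 of the 12 classes passed with a pseudocount of 0.1 RPM and 6 with 1 mean per event at 1 RPM. For whole leaves against parts the 17 became 0 with 1 mean per event and 0 in pairs of at least 8 M mapped reads, and 14 to 18 with 1 pair left out.

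Signs turned in values that had not passed, with 1 exception that passed on both sides, the 22 nt plus strand share (-4.35 points of 21 to 24 nt reads). For whole leaves against parts at 27 nt plus, the log2 difference was -0.0427 with a pseudocount of 0.1 and -0.222 with event means. For 35S against ZmUBQ, 21 nt minus turned to 0.0336 with a pseudocount of 10 and to 0.272 with event means. At 21 nt plus it turned to -0.0301 in pairs of at least 8 M and to -1.14 on ranks. Minus strand length shares turned at 28 nt to 0.00486 points (replicate block) and 0.00445 (event means), and at 22 nt to 0.0455 in libraries with at least 100 reads. As log2 ratios they turned at 23, 24 and 25 nt to -0.0729, -0.0056 and -0.366. The cause of these changes was not tested. Over single classes, apart from runs with a library, event or pair left out, 689 values kept direction and call, 47 lost a call, 7 gained one and 13 turned. Of 2200 values with one left out, 2113 kept both, 50 lost a call, 5 gained one and 32 turned, among them 10 of 28 nt in the minus strand make-up. The others were 6, 5 and 3 of 21 nt plus, 21 nt minus and 19 nt plus in 35S against ZmUBQ, 5 and 1 of 27 and 28 nt plus in whole leaves against parts, and 2 of 22 nt in the minus strand make-up. From 25 to 28 nt on the minus strand, red libraries had 7 to 10 median reads. Red levels there were near or below 1 RPM, so that those folds depended on the pseudocount. At 25 nt the fold was 77.6 with a pseudocount of 0.1 and 6.97 with 10.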
